A study of Homo sapiens with 8 samples.

Results

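The integrated stress response and the unfolded protein response were followed here through 38 genes in a prostate carcinoma line with and without SOX11. The genes were taken by symbol from the deposited table of raw counts, which has 32066 rows, and each of the 38 matched 1 row. They fall into 23 genes linked to the transcription factor ATF4 and 15 genes of the endoplasmic reticulum (ER). The first set holds 6 transcription factors, 6 feedback and effector genes, 8 enzymes of amino acid synthesis and one-carbon metabolism and 3 amino acid transporters. The second holds 3 ER stress sensors with XBP1, 8 chaperones and folding enzymes and 3 genes of ER-associated degradation. Rows were matched by symbol alone, but the 38 genes were chosen with earlier results of these data known.

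RNA was sequenced from 8 libraries of DU145, an established human epithelial line from a brain metastasis of prostate carcinoma. The 4 control libraries and the 4 libraries with SOX11 overexpression were grown in the same serum-containing medium, with no stress inducer named in the labels. SOX11 is a SOX-family factor best known from neural development. The labels give neither the vector, the promoter nor the number of clones behind the SOX11 cells, nor what the control cells carried, and do not say whether replicates were separate cultures. The p-values below therefore measure the spread between these libraries, which may be technical.

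The integrated stress response starts when a stress kinase phosphorylates the initiation factor eIF2, which lowers general translation while the ATF4 messenger RNA is translated more. ATF4 then raises genes that make, import and use amino acids, and TRIB3 and PPP1R15A limit the response. The unfolded protein response senses misfolded protein in the ER through PERK, IRE1 and ATF6, and its targets are chaperones, oxidative folding enzymes and degradation factors. Much of both pathways runs through phosphorylation, translation, cleavage and XBP1 splicing, which counts per gene do not read. In bulk RNA, fewer cells that express a gene and less of its RNA per cell cannot be told apart.

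ATF4 and the ER stress factors are known to act through different short promoter elements, shown here for the genes the results turn to. RefSeq promoter windows (GRCh38.p14, 250 bases before to 50 after a start) were available for 35 of the 38 genes, and PSPH, SHMT2 and SLC7A11 had none in the table. The ER stress element was searched on both strands as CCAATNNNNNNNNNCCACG. It was in 27 of 35116 windows, or 0.0769%, and in windows of 25 of 27305 genes, or 0.0916%. Among the 15 ER genes, 6 held it in a window: HSPA5, HSP90B1, PDIA6, CALR, CANX and XBP1. None of the 20 ATF4-linked genes with a window held it. The C/EBP-ATF core, searched as TGATGNAA on both strands, was in 1270 windows, or 3.62%, and in windows of 1217 genes, or 4.46%. It was found for 5 of the 20 ATF4-linked genes (ASNS, ATF3, CEBPG, CHAC1 and SLC3A2) and for HERPUD1 among the 15 ER genes. The element TGACGTGG was in 256 windows, or 0.729%, in windows of 253 genes, or 0.927%, and in 0 of the 35 genes' windows. It shares the letters CGTGG, the reverse complement of CCACG, with the ER stress element. The capitals in the sequences below mark the match, written 5′ to 3′ on the gene's strand. CALR and HERPUD1 hold their element in the opposite orientation.
HSPA5, chr9:125241376-125241424, minus strand: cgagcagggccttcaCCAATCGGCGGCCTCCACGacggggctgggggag
PDIA6, chr2:10812845-10812886, minus strand: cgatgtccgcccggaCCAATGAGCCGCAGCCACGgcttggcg
XBP1, chr22:28800598-28800636, minus strand: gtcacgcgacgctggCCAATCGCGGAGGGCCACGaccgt
CALR, chr19:12938369-12938417, plus strand: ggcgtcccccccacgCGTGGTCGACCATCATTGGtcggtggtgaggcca
ATF3, chr1:212565201-212565238, plus strand: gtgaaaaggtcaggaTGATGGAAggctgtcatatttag
CEBPG, chr19:33374056-33374093, plus strand: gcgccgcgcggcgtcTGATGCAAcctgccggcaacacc
HERPUD1, chr16:56931951-56931988, plus strand: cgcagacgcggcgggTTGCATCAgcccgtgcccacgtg

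Library totals were 14641250 to 18706095 counts in control and 15309037 to 16740516 in SOX11 cells, and the 38 genes took 0.722% to 0.771% and 0.715% to 0.764% of them. SOX11 itself had 0 counts in every control library and 303 to 317 in each SOX11 library. The epithelial marker EPCAM was at 44.6 and 47.7 CPM (counts scaled to each library's total) in control and SOX11 cells (not called). Of the other 4 epithelial markers, the keratins KRT8, KRT18 and KRT19 fell, from 840 to 590, 543 to 404 and 195 to 121 CPM (adjusted p = 0.000254, 1.42e-10 and 4.7e-15), and CDH1 was not called. The 5 markers had a median log2 fold change of -0.42, larger in size than any change among the 38 genes, and their summed level was 1497 to 1762 CPM in control and 1200 to 1206 CPM in SOX11 libraries. Their part in the results below was not tested. Of 8 fibroblast, blood and endothelial markers with a row, 7 were under 1 CPM in every library, and COL1A1 was at 3.61 CPM in control and 6.02 CPM in SOX11 cells. SOX11 replicate 1 stands apart in markers of luminal prostate cells. It had 95 counts of KLK3 and 161 of KLK2, against at most 4 and 3 counts in any other library. FOLH1 had 107 counts and HOXB13 84 counts there, against at most 3 and 2 elsewhere, and STEAP2 had 392 counts against 250 to 327. The calls below are also given without this library.

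Expression of these genes differed little between the groups, and the differences that passed the test were mostly decreases. By edgeR, 8 of the 38 genes (21.1%) passed an adjusted p of 0.05, against 20.0% of all 15665 genes tested. Lower in SOX11 cells were 7 genes (18.4%), against 9.67% of all genes: ATF5, TRIB3, VLDLR, SHMT2, SLC7A5, SLC3A2 and PDIA6. Higher was 1 gene (2.63%), CBS, against 10.3% of all genes. The overall share called is thus near the background, and the direction is uneven. The log2 fold change was negative for 27 of the 38 genes (71.1%) and for 49.7% of all genes, with medians of -0.05 and 0.00. The groups did not overlap for 10 of the 38 genes, against 21.1% of all genes, and in all 10 (26.3%) the SOX11 libraries were the lower ones, as in 10.4% of all genes. Those 10 are the 7 called decreases with ATF4, ATF6 and ERN1, which were not called.

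The sizes were small. The largest change among the 38 genes was 1.24-fold, for ATF5, and the median over the 8 called genes was 1.13-fold. The median absolute log2 fold change was 0.0776 for the 38 genes and 0.106 for all genes tested. All 38 genes passed the low-count filter, and the median standard error was 0.0494 for them and 0.0702 for all genes. Among the 30 genes not called, 25 had a 95% interval that lay within a 1.25-fold change in either direction. The intervals of the other 5, ATF3, DDIT4, ASNS, CTH and DNAJB9, reached further.

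Per length of exon, the 38 genes spanned a wide range, and their order was nearly the same in both groups. PSAT1, an enzyme of serine synthesis, was the highest at 315 CPM per kilobase in control and 290 in SOX11 cells. It was followed in control by the ER lectin chaperone CALR at 239, the ER chaperone HSPA5 at 189 and ATF4 at 165 CPM per kilobase. These 4 genes kept ranks 1 to 4 in SOX11 cells. At the low end stood the IRE1 gene ERN1 at 1.88, ATF3 at 1.26 and ASNS at 0.788 CPM per kilobase in control cells. ASNS, the asparagine synthetase that is a standard ATF4 target, was thus the lowest of the 38 in both groups. A transcript on the same strand shares 44.6% of the exonic bases of ASNS, so its count and this rank are uncertain.

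**Figure D1:**
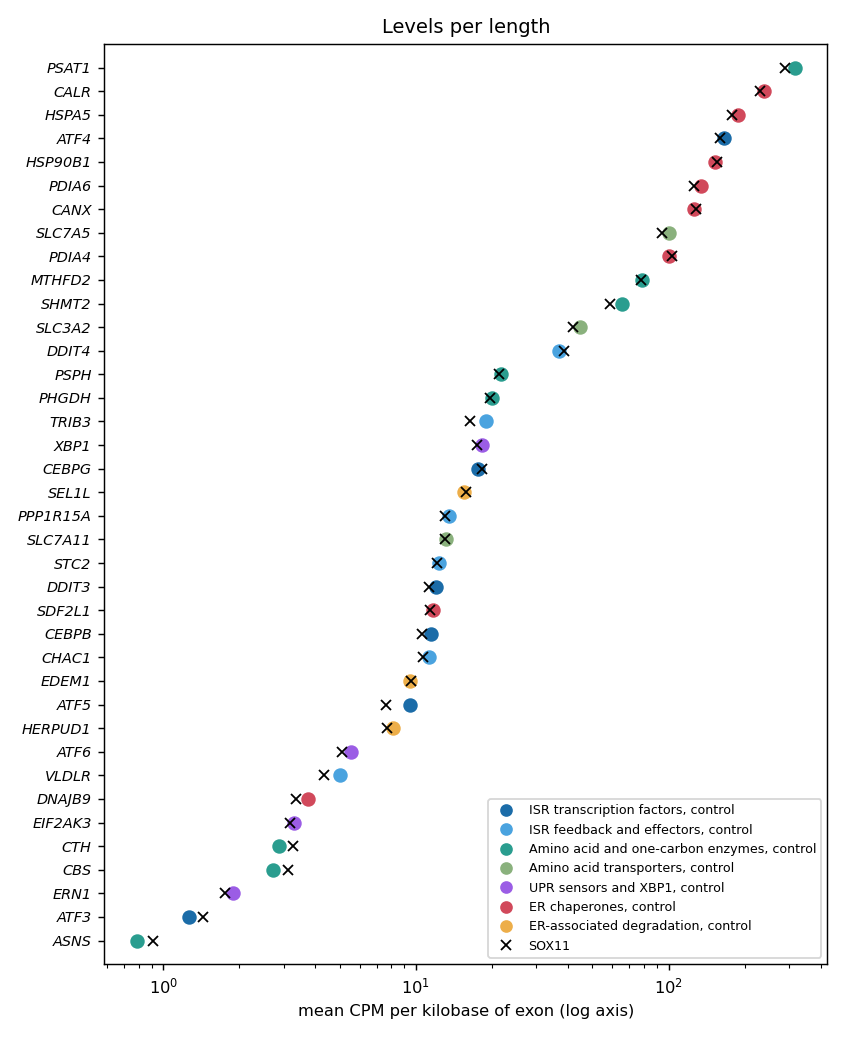
Mean TMM-scaled CPM per kilobase of exon of each gene (log axis), with control means as coloured circles and SOX11 means as crosses (4 libraries each). PSAT1 leads at 315 in control, ASNS closes at 0.788, and most crosses lie on or just left of their circle.

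Among the transcription factors of the integrated stress response, ATF5 fell and the other 5 were not called. The list of 6 had a median log2 fold change of -0.07. ATF5 (chromosome 19, 49928702 to 49933935, plus strand), which like ATF4 is translated more when eIF2 is phosphorylated, was at 26.8, 27.1, 28.8 and 28.9 CPM in control replicates 1 to 4. In SOX11 replicates 1 to 4 it was at 22.6, 21.7, 24.1 and 21.6 CPM. Every SOX11 library was below every control library. Its mean went from 27.9 ± 1.11 to 22.5 ± 1.19 CPM (SD, n = 4), a log2 fold change of -0.31 ± 0.0596 (SE; adjusted p = 0.00031). On the opposite strand, NUP62 and IL4I1 together cover 21.2% of the exonic bases of ATF5, with the larger overlap from NUP62. NUP62 was at 140 CPM in control and 143 CPM in SOX11 cells (log2 fold change 0.03, adjusted p = 0.660), and the strand setting of the counting is not given in the sources used here.

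ATF4 (chromosome 22, 39519695 to 39522685, plus strand), the central factor, moved far less than ATF5. Its control values were 414, 420, 423 and 405 CPM, and its SOX11 values were 399, 400, 405 and 401 CPM. The highest SOX11 value, 404.53 CPM, lay just under the lowest control value, 404.61 CPM, so the groups were separate by a margin under the rounding. The means were 415 ± 8.08 and 401 ± 2.42 CPM, and the log2 fold change of -0.05 ± 0.0288 was not called (adjusted p = 0.232). Its 95% interval ran from -0.11 to 0.0054.

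The remaining factors overlapped between the groups. DDIT3, which encodes the pro-apoptotic factor CHOP, was at 15.7 ± 1.29 CPM in control and 14.8 ± 1.36 CPM in SOX11 cells (log2 fold change -0.09, adjusted p = 0.520). MARS1 and MBD6 on the opposite strand together cover 31.6% of the exonic bases of DDIT3. MARS1, which has the larger overlap, was at 417 and 414 CPM. ATF3, a stress-induced repressor, was at 5.09 ± 0.349 and 5.81 ± 0.804 CPM (0.18, adjusted p = 0.319). The C/EBP factors CEBPB and CEBPG, partners of ATF4 at its elements, had log2 fold changes of -0.11 (adjusted p = 0.441) and 0.05 (adjusted p = 0.382).

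Of the 6 feedback and effector genes, TRIB3 and VLDLR fell. TRIB3 (chromosome 20, 362835 to 397559, plus strand), a pseudokinase that ATF4 induces and that restrains it, was at 64.5, 67.7, 67.99 and 60.9 CPM in control libraries. The SOX11 libraries held 58.6, 59.0, 52.7 and 54.2 CPM. All 4 lay below the lowest control library. The log2 fold change was -0.22 ± 0.0475 (adjusted p = 0.00111), from means of 65.3 ± 3.34 and 56.1 ± 3.14 CPM.

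VLDLR (chromosome 9, 2621834 to 2660053, plus strand), a lipoprotein receptor that ATF4 can induce, was at 51.2, 45.6, 45.7 and 43.9 CPM in control. It was at 41.2, 42.4, 38.6 and 40.2 CPM in SOX11 libraries. Control replicate 1 was the highest of the 8, and the groups were separate. The means of 46.6 ± 3.18 and 40.6 ± 1.60 CPM gave a log2 fold change of -0.20 ± 0.0521 (adjusted p = 0.00565). VLDLR-AS1, on the opposite strand, covers 7.90% of its exonic bases and was at 2.65 and 2.59 CPM.

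The other effectors were not called. PPP1R15A, the phosphatase subunit that restores eIF2, had a log2 fold change of -0.06 (adjusted p = 0.567), and CHAC1, a glutathione-degrading enzyme, of -0.07 (adjusted p = 0.617). STC2, a secreted glycoprotein, was at -0.04 (adjusted p = 0.726). DDIT4, an inhibitor of mTORC1 signalling, was at 0.07 (adjusted p = 0.785). Its libraries ran from 64.7 to 87.8 CPM in control and from 66.1 to 89.8 CPM in SOX11 cells, the widest relative spread among these 6 genes.

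**Figure D2:**
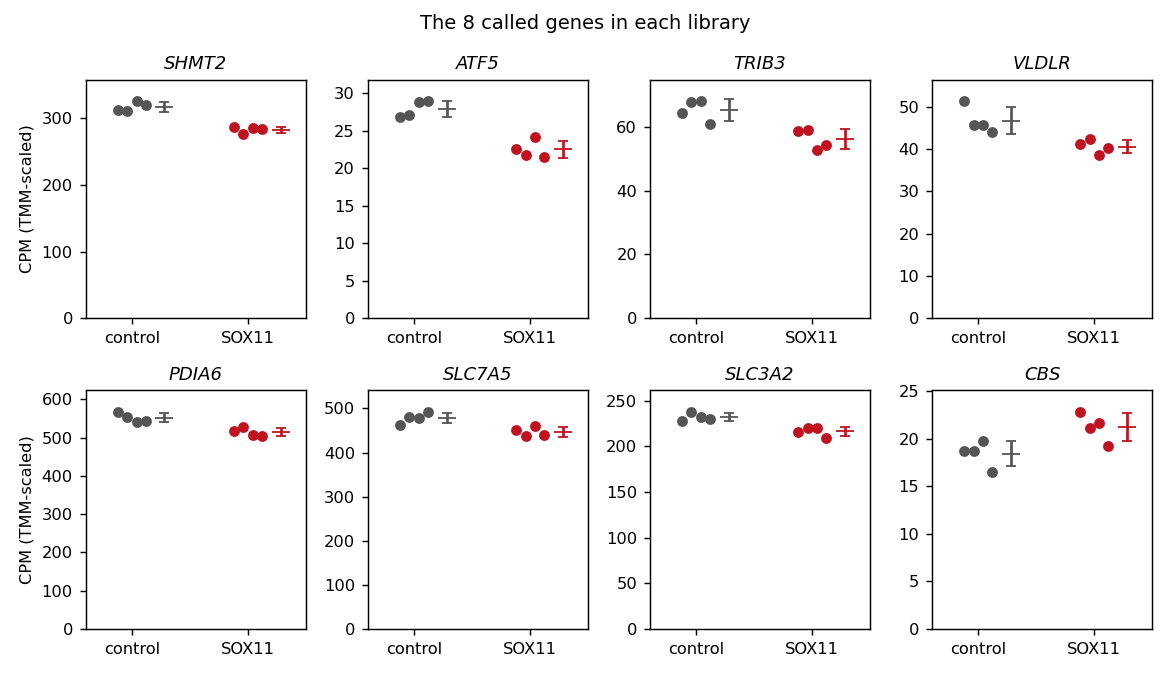
TMM-scaled CPM of the 8 called genes in each library (points, replicates 1 to 4 from left to right in each group), with group mean and SD beside them. For 7 genes every SOX11 point is below every control point; CBS is the exception, with SOX11 replicate 4 at 19.3 CPM below control replicate 3 at 19.8 CPM.

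Of the 11 genes of amino acid supply, 3 fell and 1 rose, and their median log2 fold change was -0.03. For comparison, 9.67% of all genes tested were lower and 10.3% higher. SHMT2, the mitochondrial serine hydroxymethyltransferase that passes a carbon unit from serine to folate, had the smallest adjusted p of the 38. SHMT2 (chromosome 12, 57229327 to 57234935, plus strand) was at 312, 310, 325 and 320 CPM in control and at 286, 277, 286 and 284 CPM in SOX11 libraries. The groups were well apart and each was tight. The log2 fold change was -0.16 ± 0.0301 (adjusted p = 0.000182), from means of 317 ± 7.06 and 283 ± 4.45 CPM. MTHFD2, the next mitochondrial enzyme of the folate path, was at 384 ± 8.52 and 378 ± 21.4 CPM (-0.02, adjusted p = 0.716). The ratio of SHMT2 to MTHFD2 in CPM was 0.826 ± 0.0201 in control and 0.752 ± 0.0522 in SOX11 libraries, a description with no test.

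The 3 enzymes of serine synthesis did not pass the test. PHGDH, its first enzyme, had a log2 fold change of -0.03 (adjusted p = 0.637), and PSPH, its last, of -0.03 (adjusted p = 0.713). A pseudogene row held 16.6% as many counts as PSPH, so the division of reads between the copies of PSPH is uncertain. PSAT1, the middle enzyme, was at 724, 663, 721 and 654 CPM in control and at 610, 700, 616 and 609 CPM in SOX11 libraries. SOX11 replicate 2 alone reached the control range. The log2 fold change of PSAT1 was -0.12 ± 0.0466 (adjusted p = 0.0786) with all libraries and -0.17 (adjusted p = 0.000271) without SOX11 replicate 2. PSAT1 was called in 4 of 15 alternatives, where its adjusted p ran from 0.000271 to 0.203, the latter without SOX11 replicate 1.

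CBS, which makes cystathionine from homocysteine and serine, was the only called gene that rose. CBS (chromosome 21, 43053191 to 43076943, minus strand) was at 18.7, 18.8, 19.8 and 16.6 CPM in control and at 22.8, 21.2, 21.7 and 19.3 CPM in SOX11 libraries. SOX11 replicate 4 fell within the control range, and the other 3 were above it. The means were 18.5 ± 1.35 and 21.2 ± 1.48 CPM, with a log2 fold change of 0.20 ± 0.0695 (adjusted p = 0.0371). Without SOX11 replicate 1 it was 0.17 (adjusted p = 0.136), and the call was lost in 8 of 15 alternative analyses. In the GRCh38 assembly a near-identical copy, CBSL, lies on the same chromosome and is not analysed here. The division of reads between CBS and CBSL, and with it the level of CBS, is uncertain. CTH, the next enzyme toward cysteine, was at 6.94 ± 1.02 and 7.85 ± 0.901 CPM (0.17, adjusted p = 0.315).

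ASNS was at 4.22, 3.62, 3.02 and 3.19 CPM in control and at 5.24, 3.96, 3.28 and 3.71 CPM in SOX11 libraries. SOX11 replicate 1, the library with luminal prostate transcripts, was the highest. The log2 fold change was 0.20 ± 0.155 (adjusted p = 0.413), and 0.05 (adjusted p = 0.883) without that library. A transcript on the same strand, AC079781.5, shares 44.6% of the exonic bases of ASNS, which makes its count uncertain.

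Both chains of the LAT1 transporter fell by small amounts. SLC7A5, the light chain that carries large neutral amino acids (chromosome 16, 87830023 to 87869488, minus strand), was at 463, 480, 479 and 492 CPM in control. Its SOX11 values were 452, 437, 461 and 440 CPM. SLC3A2, the heavy chain (chromosome 11, 62856102 to 62888875, plus strand), was at 228, 238, 232 and 230 CPM in control and at 216, 221, 220 and 209 CPM in SOX11 libraries. Neither gene had a SOX11 library inside the control range. The log2 fold changes were -0.10 ± 0.0300 for SLC7A5 (adjusted p = 0.0200) and -0.10 ± 0.0314 for SLC3A2 (adjusted p = 0.0221). The CPM ratio of SLC7A5 to SLC3A2 was 2.06 ± 0.0525 in control and 2.07 ± 0.0588 in SOX11 libraries.

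SLC7A11, the cystine carrier that pairs with the same heavy chain, was at 127 ± 5.95 and 126 ± 5.06 CPM (log2 fold change -0.01, adjusted p = 0.903). Its CPM ratio to SLC3A2 was 0.548 ± 0.0297 in control and 0.584 ± 0.0227 in SOX11 libraries. Over 15 alternatives the log2 fold change of SLC7A5 ran from -0.11 to -0.08 and that of SLC3A2 from -0.11 to -0.09, and each lost its call in 3 of them. SLC7A5 was not called without control replicate 2 (adjusted p = 0.0537), 3 (0.0531) or 4 (0.0818). For SLC3A2 the adjusted p was 0.0891 when control replicate 2 was left out, 0.0532 for control replicate 3 and 0.0749 for SOX11 replicate 4.

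Turning to the ER, the 3 sensors and XBP1 gave 0 calls in either direction with edgeR, and likewise with DESeq2 and limma-voom. At an unadjusted p under 0.05, edgeR had 1 gene lower (ATF6) and 0 higher. The 4 genes had a median log2 fold change of -0.08. ATF6, the sensor cleaved in the Golgi, was at 41.7, 43.9, 45.3 and 43.1 CPM in control and at 40.1, 41.3, 40.6 and 39.5 CPM in SOX11 libraries. Its groups did not overlap, and its log2 fold change was -0.11 ± 0.0478 (adjusted p = 0.120). ERN1, which encodes the IRE1 kinase and nuclease, was also separate between groups, at 20.4 ± 0.482 and 19.1 ± 0.303 CPM (-0.10, adjusted p = 0.314). EIF2AK3, which encodes PERK, was at -0.05 (adjusted p = 0.759). XBP1, the factor made active by IRE1 splicing, was at -0.06 (adjusted p = 0.492), and its 2 isoforms are not told apart by these counts.

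The 8 ER chaperones and folding enzymes had 1 called gene and a median log2 fold change of -0.04. PDIA6, a protein disulfide isomerase that bears the ER stress element printed above (chromosome 2, 10783391 to 10837977, minus strand), fell. It was at 567, 554, 542 and 545 CPM in control and at 518, 529, 508 and 506 CPM in SOX11 libraries. No SOX11 library reached the control range. The means were 552 ± 11.4 and 515 ± 10.5 CPM, with a log2 fold change of -0.10 ± 0.0291 (adjusted p = 0.0138). Without SOX11 replicate 3 the adjusted p was 0.0545.

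HSPA5, the master chaperone BiP and the usual readout of the unfolded protein response, came close to the threshold. Its levels were 763, 747, 737 and 710 CPM in control and 706, 723, 683 and 679 CPM in SOX11 libraries. SOX11 replicate 2 lay above the lowest control library, so the groups overlapped. The log2 fold change was -0.08 ± 0.0304 (adjusted p = 0.0517), and HSPA5 was called lower in 6 of 15 alternative analyses, among them limma-voom (adjusted p = 0.0360). HSP90B1, the ER HSP90 with the same promoter element, was at 720 ± 35.9 and 729 ± 31.4 CPM (0.02, adjusted p = 0.803). As a description, the ratio of HSPA5 to HSP90B1 in CPM ran from 1.01 to 1.06 over control libraries and from 0.937 to 0.972 over SOX11 libraries, without overlap.

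The remaining ER genes were not called. The lectin chaperones CALR and CANX had log2 fold changes of -0.05 (adjusted p = 0.340) and 0.02 (adjusted p = 0.659). PDIA4, another disulfide isomerase, was at 0.04 (adjusted p = 0.477), and SDF2L1, an HSPA5 co-factor, at -0.04 (adjusted p = 0.816). DNAJB9, an HSPA5 co-chaperone, was at 10.6 ± 1.12 and 9.49 ± 1.60 CPM (-0.15, adjusted p = 0.365). ER-associated degradation gave 0 calls with edgeR, DESeq2 or limma-voom, and 0 genes at an unadjusted p under 0.05. HERPUD1, a membrane organiser of the degradation complex, was at -0.08 (adjusted p = 0.303). EDEM1, a mannosidase-like lectin, and SEL1L, the ligase adaptor, were at 0.01 (adjusted p = 0.878) and 0.03 (adjusted p = 0.660).

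Set side by side, the 23 ATF4-linked genes had 6 decreases and 1 increase, and the 15 ER genes had 1 decrease. Over all 15665 genes tested, 9.67% were lower and 10.3% higher. Their medians were both -0.05. The log2 fold changes ran from -0.31 to 0.20 in the first set and from -0.15 to 0.04 in the second. Whether the sets differ was not tested. Of the 8 called genes, 7 have a promoter window, and 1 of these holds the C/EBP-ATF core (SLC3A2, after the start) and 1 the ER stress element (PDIA6).

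**Figure D3:**
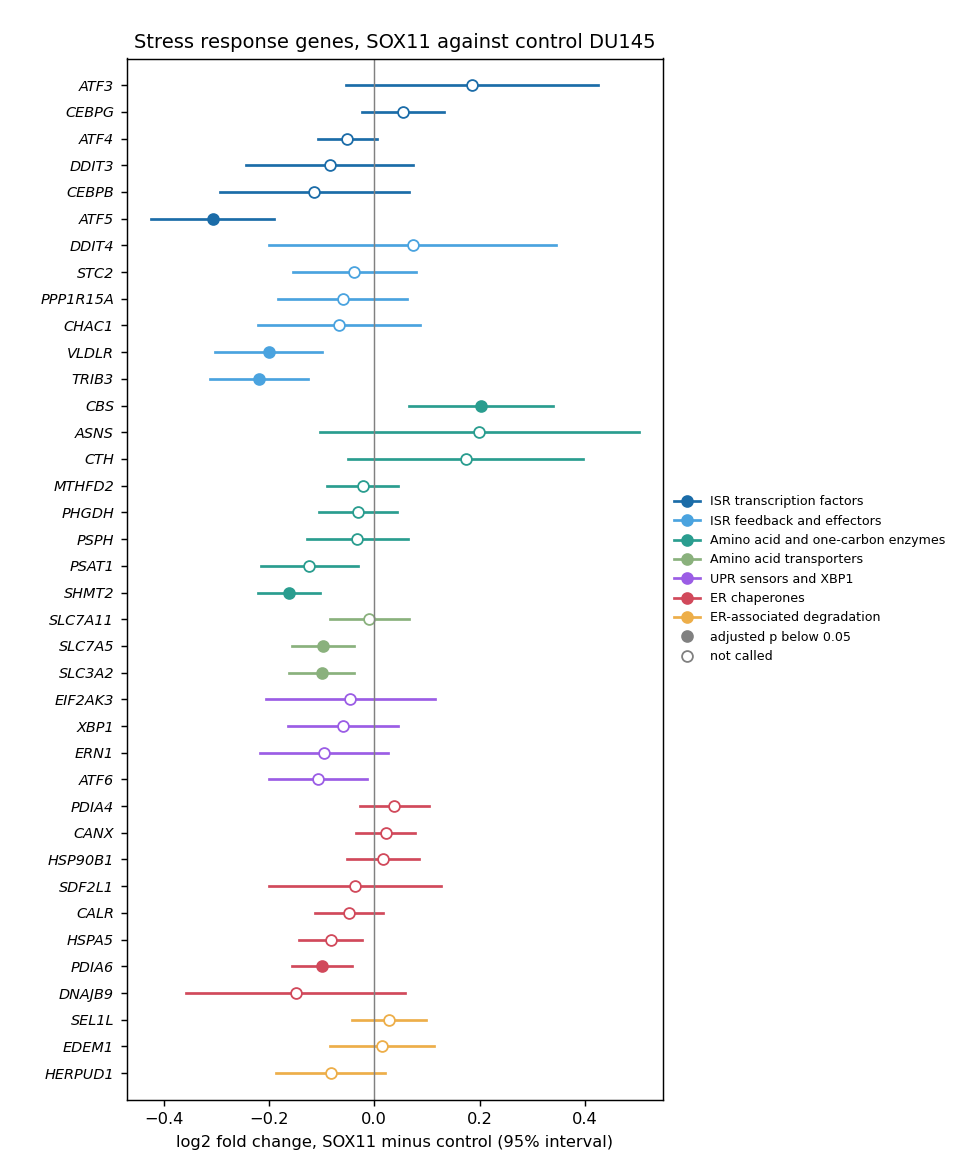
Log2 fold change (SOX11 minus control) of each of the 38 genes with its 95% interval from edgeR, coloured by role and filled where the adjusted p is below 0.05. Estimates run from -0.31 (ATF5) to 0.20 (CBS), and most of the open circles lie within 0.15 of 0.

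The libraries of a group differed in the level of the whole set. Control replicate 4 was the lowest of its group for 22 of the 38 genes and SOX11 replicate 4 was the lowest of its group for 22. The median log2 deviation from the group mean was -0.08 in control replicate 4 and -0.05 in SOX11 replicate 4. Control replicate 1 was the highest control for 21 genes, with a median deviation of 0.05. SOX11 replicate 2 was the highest of its group for 16 genes and SOX11 replicate 1 for 14. These shifts are about as large as the median difference between the groups.

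**Figure D4:**
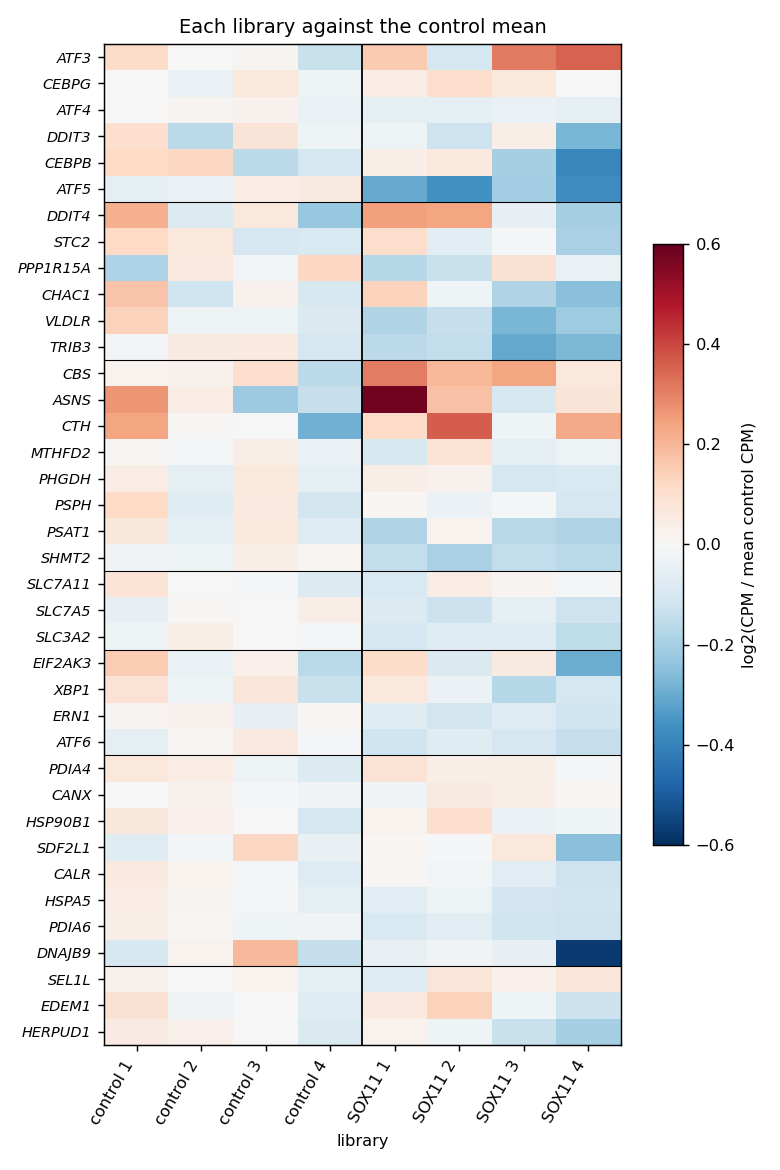
Log2 of each library's CPM over the control mean (colour; rows are genes ordered by role, columns are the 8 libraries). Blue cells run across all 4 SOX11 columns for ATF5, TRIB3, VLDLR and SHMT2, and the column of control replicate 4 is mostly pale blue, at a median deviation of -0.08 from the group mean.

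Leaving out SOX11 replicate 1 kept the 7 decreases, and CBS was lost. ATF5 was then at -0.31 (adjusted p = 0.0012), TRIB3 at -0.24 (0.0014), VLDLR at -0.21 (0.0116), SHMT2 at -0.17 (0.00038) and PDIA6 at -0.10 (0.0197). SLC7A5 and SLC3A2 were both at -0.10 (adjusted p = 0.0243 and 0.0376). Without that library 2602 genes were called over all genes, against 3130 with it. The log2 fold changes of the 38 genes moved by a median of 0.0184. The shift was largest for ASNS, given above, and next for CHAC1, from -0.07 to -0.15 (adjusted p = 0.213). The estimates of MTHFD2, SLC7A11 and EDEM1, none of them called, changed sign.

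Further genes of the same pathways were read from 9 lists of 179 genes in all, of which 173 passed the filter. Of these, 14 rose (8.09%, against 10.3% of all genes) and 31 fell (17.9%, against 9.67%), and the median log2 fold change was -0.04. Without SOX11 replicate 1, a comparison added after the data were seen, 8 of 174 were higher (4.60%, against 8.28% of all genes) and 25 lower (14.4%, against 8.16%). Of the 45 calls 28 were kept and 17 lost, and 5 genes were gained. The aminoacyl-tRNA synthetases, which charge tRNAs and are partly ATF4 targets, had 8 lower (40.0%) and 1 higher of 20, with a median of -0.07, and 4 lower and 1 higher without SOX11 replicate 1. TARS1 went from 756 ± 15.9 to 685 ± 14.1 CPM (-0.14, adjusted p = 0.000459), FARSB was at -0.16 (adjusted p = 0.00248) and YARS1 at -0.14 (adjusted p = 0.00313). LARS1 rose, at 0.11 (adjusted p = 0.0083).

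Genes of eIF2, its exchange factor and its kinases had 4 lower of 17 (23.5%, against 9.67% of all genes) and 0 higher. Without SOX11 replicate 1, 3 were lower (17.6%, against 8.16% of all genes). EIF2S2, the beta subunit of eIF2, went from 293 ± 6.21 to 263 ± 11.1 CPM (-0.16, adjusted p = 0.000747). EIF2AK4, which encodes the amino acid sensing kinase GCN2, was at -0.12 (adjusted p = 0.0249), and at -0.09 (adjusted p = 0.115) without SOX11 replicate 1. EIF2B2, a subunit of the exchange factor, was at -0.15 (adjusted p = 0.0144), and the alternative initiation factor EIF2A at -0.16 (adjusted p = 0.00169).

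The mitochondrial protein-folding genes had 4 lower of 11 (36.4%, against 9.67% of all genes). Without SOX11 replicate 1, 3 were lower (27.3%, against 8.16% of all genes). The chaperonin HSPD1 led, from 675 ± 10.8 to 609 ± 9.68 CPM (-0.15, adjusted p = 0.000275). The protease subunit AFG3L2 was at -0.14 (adjusted p = 0.00165), the co-chaperone DNAJA3 at -0.12 (adjusted p = 0.0285) and the import subunit TIMM17A at -0.10 (adjusted p = 0.048, and 0.113 without SOX11 replicate 1). Among 17 further amino acid genes, 3 fell (17.6%, against 9.67% of all genes) and 2 rose (11.8%, near the 10.3% of all genes). SLC6A9, a glycine transporter, was at -0.32 (adjusted p = 0.00238) and the glutamine carrier SLC1A5 at -0.12 (adjusted p = 0.0126). GOT1, an aspartate aminotransferase, was at -0.11 (adjusted p = 0.0283), while the glutamine carrier SLC38A1 rose by 0.14 (adjusted p = 0.0018).

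The largest change with an adjusted p under 0.05 in these lists was an increase. KLHL24, an adaptor of a ubiquitin ligase that the ATF4 pathway can induce, went from 8.24 ± 0.851 to 17.5 ± 0.813 CPM (1.09 ± 0.0842, adjusted p = 3.29e-11). SQSTM1, the autophagy receptor p62, went from 450 ± 9.95 to 527 ± 26.2 CPM (0.23, adjusted p = 6.03e-06). NARF was at 0.20 (adjusted p = 0.0101), and the repressor JDP2 fell, at -0.21 (adjusted p = 0.0083). That list of 18 had 4 higher (22.2%, against 10.3% of all genes) and 2 lower (11.1%, near the 9.67% of all genes). Its median was -0.02.

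The ER lists held changes in both directions. The 29 folding genes had 4 lower (13.8%, against 9.67% of all genes) and 2 higher (6.90%, against 10.3%). ERO1A, the oxidase of disulfide formation, was at -0.13 (adjusted p = 0.00589) and the isomerase PDIA3 at -0.11 (adjusted p = 0.00861). FKBP14, a prolyl isomerase, rose by 0.22 (adjusted p = 0.0043). TXNDC5 was low, at 1.46 ± 0.464 and 0.797 ± 0.312 CPM (-0.86, adjusted p = 0.0309, and 0.110 without SOX11 replicate 1), and 60.6% of its exonic bases are shared with the readthrough gene BLOC1S5-TXNDC5. The 20 further degradation genes had 2 lower (10.0%), near the share over all genes, among them NGLY1, a deglycosylating enzyme, at -0.15 (adjusted p = 0.0339). The 26 translocation and glycosylation genes had 2 lower (7.69%) and 1 higher (3.85%), both under the shares over all genes. There the translocon-associated subunits split, with SSR2 at 0.15 (adjusted p = 0.000529) and SSR3 and SSR1 at -0.11 (adjusted p = 0.017) and -0.10 (adjusted p = 0.0266). Without SOX11 replicate 1 the adjusted p was 0.0506 for SSR3 and 0.0659 for SSR1. Of 15 further signalling genes, 4 rose (26.7%, against 10.3% of all genes) and 2 fell (13.3%, against 9.67%). BBC3, which encodes the pro-apoptotic PUMA, rose from 1.37 ± 0.365 to 2.23 ± 0.367 CPM (0.69, adjusted p = 0.0197). MAP3K5, the stress kinase ASK1, fell from 9.43 ± 0.335 to 7.32 ± 0.371 CPM (-0.36, adjusted p = 0.00558). CREB3, an ER-bound factor, was at -0.14 (adjusted p = 0.0266) and MBTPS1, the protease that cleaves ATF6, at 0.12 (adjusted p = 0.0272). Without SOX11 replicate 1 the signalling list kept 1 call, a decrease, and BBC3 was at 0.59 (adjusted p = 0.0844), CREB3 at -0.14 (0.0537) and MBTPS1 at 0.11 (0.0988).

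**Figure D5:**
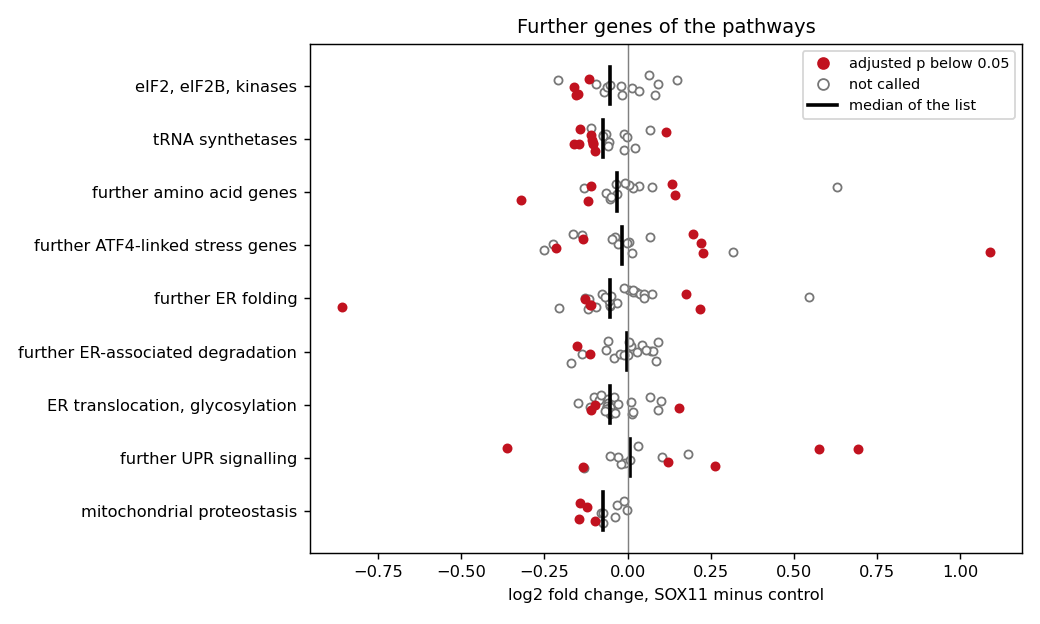
Log2 fold change (SOX11 minus control) of the 173 further pathway genes by list, filled where the edgeR adjusted p is below 0.05, with each list's median as a black bar. The medians lie between -0.07 and 0.01, and KLHL24 stands alone at 1.09.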

How the data were processed

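The authors deposited raw counts per Ensembl gene for 8 libraries, with no normalization. Per the labels' protocols, libraries were made with a stranded poly(A) kit. Per the submitters' processing notes, cutadapt, FastQC, STAR 2.7.0e and GRCh38 were used. Neither the counter nor its strand setting and annotation are stated in these notes.

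Genes were filtered (filterByExpr, minimum count 10), scaled by TMM and tested with the quasi-likelihood test of edgeR 4.0.16 in R 4.3.3 with no covariate. Benjamini-Hochberg adjustment ran over 15665 genes, and a gene was called below 0.05. CPM values are TMM-scaled means ± SD over 4 libraries, and fold changes are log2, SOX11 minus control, ± SE. Intervals are 95%. Positions and exon lengths are GRCh38, GENCODE 29. Scripts were tested on simulated data. Alternatives used other scaling, filters, DESeq2 1.42.0, limma 3.58.1 (voom), a replicate block and each library left out.

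The 38 genes and the lists were chosen with earlier results of these data known. All 38 are reported. From the further lists, up to 4 called genes with the smallest adjusted p are named, and an item taken by this rule is not reported here. Of the luminal prostate markers, 7 were chosen after values of the first ones were seen.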

Additional observations from a re-analysis of the deposited data

Results flagged for a closer look

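In 2 of 76 checks of the 38 genes, 1 library of a group of 4 lay far from the other 3, where chance flags about 1 in 20. PSAT1 was at 700.1 CPM in SOX11 replicate 2, against 609 to 616 CPM in the other SOX11 libraries. DNAJB9 was at 7.10 CPM in SOX11 replicate 4, against 10.2 to 10.4 CPM in the others.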

How the results depend on the processing

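Across 15 alternatives the number of the 38 genes called lower ran from 5 to 9, and ATF5, TRIB3, VLDLR and SHMT2 were called in every one. CBS, the 1 gene called higher, was not called with no filter on low counts or with DESeq2, giving 0 higher in each, where 1 gene was higher at an unadjusted p under 0.05 with DESeq2 and with edgeR. With 1 library left out, 5 to 9 genes were lower and 0 to 1 higher, out of 2466 to 3057 genes called in all. The cause was not tested. Calls over all genes were 2407 with DESeq2 and 3128 with RLE factors.

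With the replicate number as a block (replicate block), 8 of the 38 genes were lower, 1 was higher and 2899 genes were called in all. Same-numbered libraries had correlations of -0.13 to 0.13, and pairs with different numbers ran from -0.13 to 0.14. Each library was first centred on its group mean, so these values do not settle whether same-numbered libraries shared a batch. Counts near 5 CPM, as for ATF3 and ASNS, limit what can be detected for those genes.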
